A study of Mus musculus with 2 samples.

Results

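The nuclear-encoded respiratory chain genes are the genes of the cell nucleus that encode subunits of the 5 complexes of oxidative phosphorylation. They were taken by symbol: every gene whose name starts with Nduf followed by a, b, c, s or v and a digit, the 4 Sdh genes, and every gene starting with Uqcr, with Cox4 to Cox8 or with Atp5. The rule found 83 of the 20451 genes in the deposited tables. By name, 38 fall under complex I, 4 under complex II, 8 under complex III, 16 under complex IV and 17 under complex V. The 13 genes with the prefix mt-, which are encoded by mitochondrial DNA, were measured beside them. No measured value was used to choose a member.

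Oxidative phosphorylation takes place in the inner mitochondrial membrane. Complex I (NADH dehydrogenase, Nduf genes) and complex II (succinate dehydrogenase, Sdh genes) pass electrons to ubiquinone, complex III (Uqcr genes) passes them to cytochrome c, and complex IV (cytochrome c oxidase, Cox genes) passes them to oxygen. Complex V (ATP synthase, Atp5 genes) uses the resulting proton gradient to make ATP. Complexes I, III, IV and V are mosaics of nuclear and mitochondrially encoded subunits, whereas complex II is wholly nuclear. Some complex IV subunits have a second, tissue-restricted copy: COX6A2, COX7A1 and COX8B are known from heart and skeletal muscle, COX4I2 from lung and COX6B2 from testis. The names also hold exceptions, since NDUFA4 is now placed in complex IV and COX7A2L is known as a factor that joins complexes III and IV. Ndufb1-ps, counted here under complex I, is annotated in GENCODE vM21 as a noncoding RNA at a bidirectional promoter and not as a protein-coding gene.

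The cells came from the thymus of 7-week-old mice. Digestion with collagenase D was followed by magnetic depletion of CD90.2-bearing thymocytes and by sorting on CD11c and CD11b, which mark dendritic and myeloid cells. The groups were wild-type mice (WT, hashtag B6WT) and Mgl2DTR_eGFP mice (Mgl2DTR), which carry a diphtheria toxin receptor under Mgl2, the gene of the lectin CD301b, and received 500 ng of toxin, with collection at 48 hours. The labels do not state plainly whether WT mice received toxin, nor how many mice were pooled. Genotype, toxin and pool cannot be told apart. Each genotype was 1 hashtagged pool, so no p-value could be given, and each interval below is an exact 95% interval that covers counting error only.

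Of 28926 cells, 11586 carried only the WT hashtag and 7433 only the Mgl2DTR hashtag, with a median of 7820 and 6930 UMIs (unique molecules counted) per cell. Another 9829 cells carried a pair of hashtags and 78 carried none, and these were left out. No cell barcode occurred in both gene tables. Cells were clustered without the 83 members, the mt- genes and Mgl2, and clusters were named from marker lists, hence names such as cDC1-like (conventional type 1 dendritic cell), pDC-like (plasmacytoid dendritic cell) and activated DC-like (Ccr7-bearing dendritic cell). The named clusters used here held 14774 cells, 77.7% of the single-hashtag cells, in 12 WT types. T cell, B cell and NK-like cells were present in spite of the depletion and the sort. Mgl2, the targeted gene, was at 109 CPM (UMIs of a gene scaled to a common total, 107 to 111) over all WT cells and at 17.9 CPM (17 to 18.9) over all Mgl2DTR cells. In cDC2-like cells (type 2) it was at 731 CPM in WT and 226 in Mgl2DTR, and these cells made up 7.72% and 3.28% of the cells of each genotype.

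The members together made up 3.08% of all WT UMIs and 3.06% of all Mgl2DTR UMIs, and the mt- genes 1.93% and 1.94%. Between WT cell types the summed level of the members spanned 16876.9 to 37608.1 CPM. The order, from the highest, was cycling T cell or thymocyte-like (37608.1 CPM), cDC2-like (34366.7), pDC-like (34189.5) and cycling cDC1-like (33784.0). Next came cDC1-like (31528.4), monocyte-like (31461.4), macrophage-like (30963.5), T cell or thymocyte-like (28617.2) and NK or innate lymphoid-like (27986.4). Activated DC-like (24558.1), B cell-like (24182.2) and neutrophil-like cells (16876.9) were the lowest. Of the pDC-like sum, 2833.8 CPM came from Cox6a2 alone, more than the lead of pDC-like over cDC1-like or monocyte-like cells. The Mgl2DTR pool gave 34888.3 CPM in cDC2-like, 33824.9 in cycling cDC1-like, 33439.9 in cycling T cell or thymocyte-like, 33297.9 in cycling neutrophil-like, 32805.5 in monocyte-like and 32762.0 in pDC-like cells. At its low end it gave 23366.9 in activated DC-like, 22996.3 in B cell-like and 17361.8 in neutrophil-like cells. Scaled to UMIs other than mt- and ribosomal protein genes, the top 5 types of WT stayed in the same order and neutrophil-like cells stayed last, while T cell or thymocyte-like cells moved up to 6th place and activated DC-like cells moved to 11th. Ribosomal protein genes took 32.3% of the UMIs of WT B cell-like cells and 8.18% of those of neutrophil-like cells.

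The spread from cell to cell was read after thinning. With each cell thinned to 2000 UMIs, the median WT cell held 75 member UMIs in cycling T cell or thymocyte-like (interquartile range 65 to 84), 68 in pDC-like (60 to 77), 67 in cDC2-like (58 to 78) and 61 in cDC1-like cells (53 to 71). It held 49 in activated DC-like (40 to 57) and 26 in neutrophil-like cells (20 to 34). The interquartile ranges of neutrophil-like cells and of each of these other types did not overlap. Cells with under 2000 UMIs were left out, which removed 95 of the 364 WT neutrophil-like cells.

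**Figure D1:**
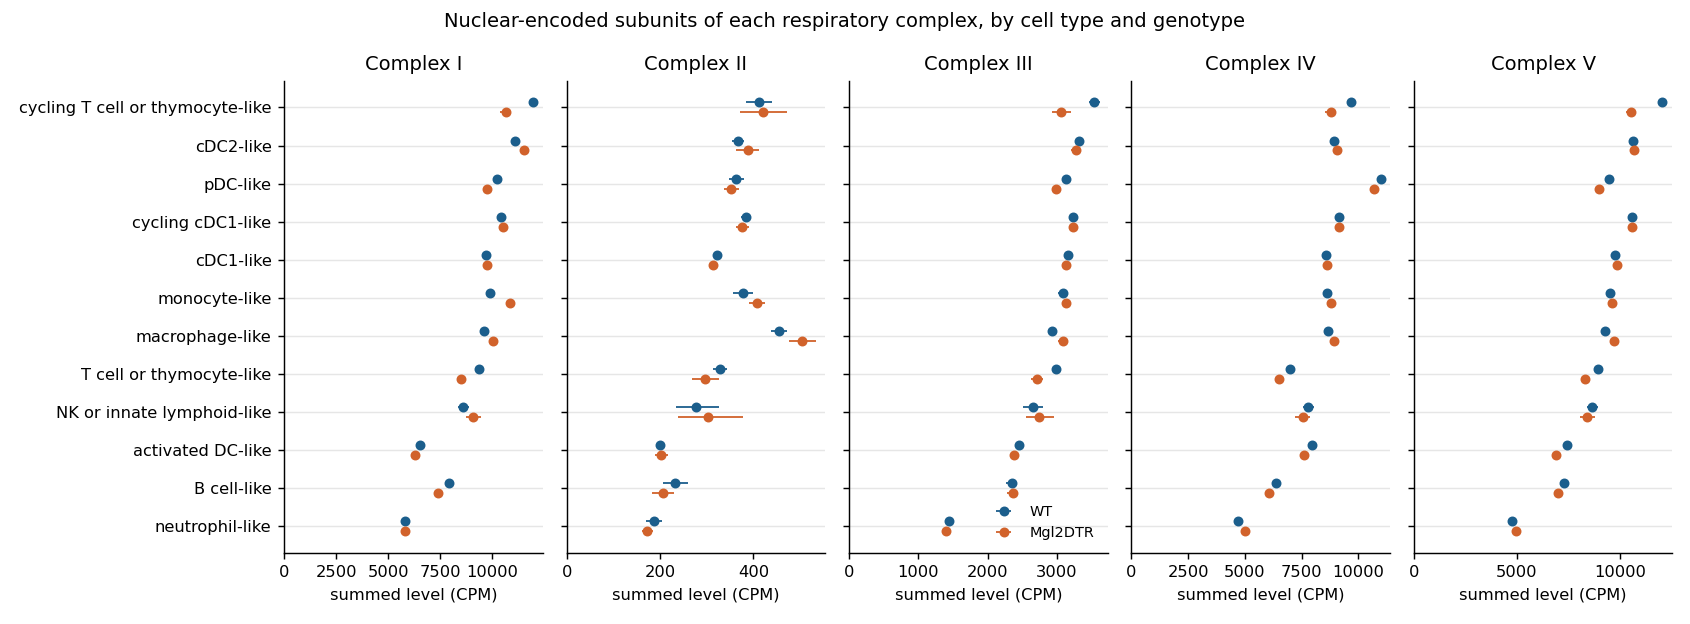
Summed level in CPM (x axis, from 0) of the nuclear-encoded subunits of complexes I to V, 1 panel each, in 12 cell types (y axis), with WT in blue and Mgl2DTR in orange and bars for the 95% counting interval. Neutrophil-like cells were lowest in every panel (complex I 5785.9 CPM in WT), and pDC-like cells were highest only in the complex IV panel (10975.6 CPM in WT).

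The plot of complexes by cell type shows similar orders of cell types for complexes I, III and V. Complex I spanned 5785.9 CPM in neutrophil-like to 11955.3 in cycling T cell or thymocyte-like WT cells, a ratio of 2.07. Its sum includes Ndufb1-ps, not annotated as protein-coding, at a median of 775 CPM over the WT types. Complex III spanned 1444.8 to 3539.3 CPM (2.45) and complex V 4782.6 to 12022.9 CPM (2.51), between the same types. Across the 12 WT types, complex III and complex V gave a Pearson r of 0.98 and a Spearman rho of 0.99, complexes I and V gave 0.96 and 0.97, and complexes I and IV gave 0.78 and 0.88. The points share 1 pool and 1 scaling, so these are descriptions.

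Complex II stood apart in its highest type. It was at 454 CPM in WT macrophage-like cells and 505 in Mgl2DTR ones, at 411 and 420 CPM in cycling T cell or thymocyte-like cells, and at 187 and 173 in neutrophil-like cells. Macrophage-like cells also held the highest WT level of Sdhb (212 CPM, the iron-sulfur subunit), Sdhc (63.4 CPM) and Sdhd (88.4 CPM, both membrane anchors), while Sdha, the flavoprotein, was highest in T cell or thymocyte-like cells (93.6 CPM). Of the macrophage-like cells, 34.4% in WT and 51.1% in Mgl2DTR were called doublets from their neighbours, and the part of these in the level was not tested.

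Complex IV was highest in pDC-like cells at 10975.6 CPM in WT and 10701.7 in Mgl2DTR. Without Cox6a2 it was at 8141.9 CPM in WT pDC-like cells, below the 8582.2 CPM of cDC1-like cells, and cycling T cell or thymocyte-like cells were then the highest at 9647.8 CPM.

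Of the 83 members, 66 had at least 50 UMIs in each of the 12 WT types. Their highest level divided by their lowest ran from 1.59 to 5.44 with a median of 2.5, and it was at least 2 for 58 and at least 3 for 16. The highest level lay in cycling T cell or thymocyte-like cells for 34 members, in cDC2-like cells for 11, in pDC-like cells for 6 and in cycling cDC1-like cells for 5. The lowest lay in neutrophil-like cells for 51, in activated DC-like cells for 11, in B cell-like cells for 3 and in NK or innate lymphoid-like cells for 1. Of the 11 lowest in activated DC-like cells, 8 belong to complex I, 1 to complex III and 2 to complex V.

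The members with the widest spread differed between complexes. In complex I they were Ndufa5, an accessory subunit, from 60.6 CPM in activated DC-like to 330 in cycling T cell or thymocyte-like cells, and Ndufc2, from 114 in neutrophil-like to 491 in macrophage-like cells. In complex III they were Uqcr11, from 163 CPM in neutrophil-like to 569 in pDC-like cells, and Uqcrh, the hinge protein, from 324 in neutrophil-like to 1055.7 in T cell or thymocyte-like cells. In complex IV they were Cox7a2l, from 105 to 318 CPM (highest in T cell or thymocyte-like), and Cox7b, from 253 to 752 CPM (highest in cDC1-like), both lowest in neutrophil-like cells. In complex V they were Atp5g3, from 113 to 550 CPM (highest in cycling T cell or thymocyte-like), and Atp5g1, from 135 to 577 CPM (highest in cDC2-like), again lowest in neutrophil-like cells. Atp5g1 and Atp5g3 encode the same mature c-ring protein from separate genes, and reads shared between such copies may have been split or dropped by the counting.

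The catalytic and core subunits differed in their highest and lowest types. Ndufv1, which holds the NADH site of complex I, ran from 24.3 CPM in neutrophil-like to 83.0 in cycling T cell or thymocyte-like cells, and Ndufs1, its large iron-sulfur partner, from 13.5 in activated DC-like to 50.2 in cycling T cell or thymocyte-like cells. Ndufs7 was lowest in activated DC-like (79.7 CPM) and highest in macrophage-like cells (215). Uqcrfs1, the Rieske protein, ran from 69.8 CPM in neutrophil-like to 219 in cycling cDC1-like cells, and Uqcrc1 from 59.1 in activated DC-like to 134 in cDC2-like cells. Atp5a1 and Atp5b, the alpha and beta subunits of the ATP synthase head, were lowest in neutrophil-like cells (130 and 196 CPM) and highest in cycling T cell or thymocyte-like cells (450 and 574 CPM). Cox4i1 ran from 626 CPM in neutrophil-like to 1419.9 in pDC-like cells, and Cox5a from 324 in neutrophil-like to 856 in macrophage-like cells.

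The tissue-restricted isoforms are described apart. Of 8 such genes looked for, 6 were in the tables: Cox6a2, Cox6b2, Cox7a1, Cox4i2, Cox8b and Ndufa4l2. Promoter sequences of the ubiquitous copies Cox6a1 and Cox6b1 and of the restricted copy Cox6b2 are shown first. The promoter set used here held none for Cox6a2, so its promoter could not be set beside that of Cox6a1. The lines give the 250 bases before the RefSeq start of Cox6a1 (chr5:115348959-115349208, minus strand), Cox6b1 (chr7:30626115-30626364, minus strand) and Cox6b2 (chr7:4753095-4753344, minus strand) on GRCm38.p6, written 5′ to 3′ along the gene. Capitals mark CGCATGCG, a core of the NRF1 site, and CCGGAAG on either strand, a core of the ETS site bound by GABPA.
Cox6a1: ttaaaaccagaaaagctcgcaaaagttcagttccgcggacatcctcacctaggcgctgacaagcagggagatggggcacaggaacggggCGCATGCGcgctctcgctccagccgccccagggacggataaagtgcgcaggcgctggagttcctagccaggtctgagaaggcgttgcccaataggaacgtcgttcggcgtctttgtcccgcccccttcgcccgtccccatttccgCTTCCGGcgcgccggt
Cox6b1: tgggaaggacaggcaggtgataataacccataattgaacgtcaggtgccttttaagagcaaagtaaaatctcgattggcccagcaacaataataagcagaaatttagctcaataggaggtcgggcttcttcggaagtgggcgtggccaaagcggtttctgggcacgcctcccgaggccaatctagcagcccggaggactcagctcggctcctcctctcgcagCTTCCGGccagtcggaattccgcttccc
Cox6b2: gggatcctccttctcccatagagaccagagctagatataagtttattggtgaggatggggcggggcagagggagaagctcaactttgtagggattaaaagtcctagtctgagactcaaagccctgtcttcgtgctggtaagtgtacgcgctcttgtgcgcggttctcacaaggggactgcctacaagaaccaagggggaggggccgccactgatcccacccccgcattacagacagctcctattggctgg
The Cox6a1 sequence holds both motifs and that of Cox6b1 holds the ETS motif, while neither stands in these letters of Cox6b2. This does not split ubiquitous from restricted copies, since neither stands in the 250 bases before Cox7a1, Cox7a2 or Cox7c either. In windows of 300 bases, from 250 before to 50 after each start, CGCATGCG stood in 12.7% of the 71 promoters of 66 matched members and in 1.87% of all 32851 promoters, on either strand. CCGGAAG stood in 23.9% and 8.86%, and AAGATGGC, a core of the YY1 site, in 12.7% and 2.75%. At least 1 of the 3 stood in 40.8% of member promoters and 12.6% of all, and a promoter with several counts under each. A match is a run of letters and not a measured binding site.

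Cox6a2, the muscle-type copy of subunit 6A, was measured mainly in pDC-like cells. It was at 2833.8 CPM (2788.4 to 2879.7) in 843 WT pDC-like cells and at 2970.0 CPM (2922.4 to 3018.2) in 791 Mgl2DTR ones. In cDC1-like cells it was at 5.35 and 6.27 CPM, so the WT level was 530 times as high in pDC-like as in cDC1-like cells (443 to 639). A Cox6a2 UMI was seen in 96.1% of WT and 96.7% of Mgl2DTR pDC-like cells at a median depth of 5923 and 5876 UMIs. The share was 6.65% in WT cDC1-like cells at a median depth of 13747.5 UMIs. After thinning to 2000 UMIs per cell these WT shares were 91.5% (89.4 to 93.3) and 0.688% (0.344 to 1.23). Cox6a1, the ubiquitous copy whose promoter letters stand above, was at 425 CPM in WT and 414 in Mgl2DTR pDC-like cells, and at 514 and 502 CPM in cDC1-like cells. Of the UMIs of both genes in pDC-like cells, 87.0% in WT and 87.8% in Mgl2DTR were Cox6a2, a share of 3′ UMIs that was not corrected for capture.

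Cox6a2 lies at chr7:128205435-128206387 on the minus strand in the GENCODE vM21 annotation of GRCm38. It lies within Itgad, which is on the plus strand, and the exons of the 2 genes overlap. The sources used here do not state whether the counting used strand, so reads of the overlap cannot be told apart. Itgad was at 7.83 CPM in WT and 5.81 in Mgl2DTR pDC-like cells, and at 18.7 and 20.3 CPM in macrophage-like cells, where Cox6a2 was at 38.2 and 33.6 CPM. Over both genotypes, 11 of 789 macrophage-like cells held 232 of the 305 Cox6a2 UMIs there (76.1%). These 11 cells held a median of 10 UMIs of Siglech, a defining pDC gene, and 2 of them held none. Itgax, which encodes CD11c, lies 54.8 kb away and Itgam, which encodes CD11b, 86.9 kb away, and both proteins served for the sort.

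Outside pDC-like cells Cox6a2 was lower in each of the other named types. It was at 119 CPM in WT and 151 in Mgl2DTR NK or innate lymphoid-like cells, and at 64.2 and 65.5 CPM in cDC2-like cells. In the cDC2-like cluster 18 it was at 119 CPM in both genotypes, and in cluster 16 at 13.5 and 21.3 CPM. In cluster 18, 35 of 541 cells held at least 5 Cox6a2 UMIs and together 528 of the 647 in the cluster (81.6%). These 35 cells held a median of 12 Siglech UMIs, 28 of them were not called doublets and 3 had no UMI of Siglech. All 10 listed pDC markers were detected in cDC2-like cells, where their summed level was 2351.1 CPM in WT and 2962.7 in Mgl2DTR against 18734.0 and 19712.4 CPM in pDC-like cells. Their part in the cDC2-like level was not tested.

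**Figure D2:**
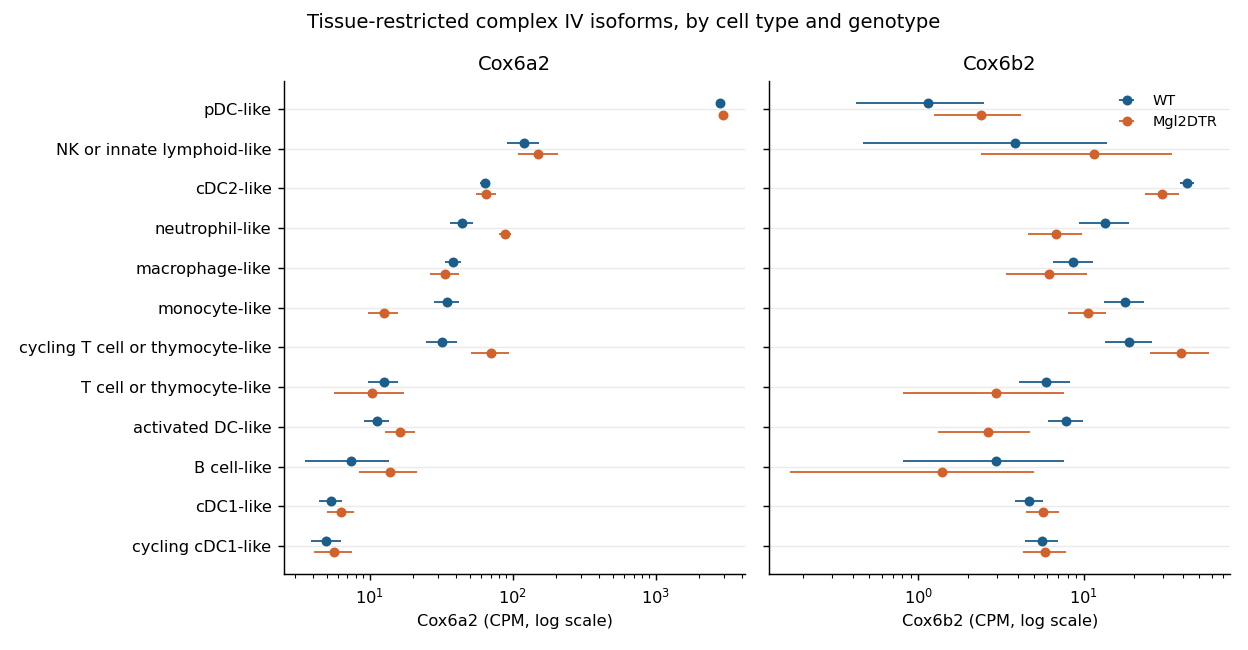
Level in CPM on a log axis of Cox6a2 (left) and Cox6b2 (right) in 12 cell types ordered by WT Cox6a2, with WT in blue, Mgl2DTR in orange and bars for the 95% counting interval. pDC-like cells lie at 2833.8 and 2970.0 CPM for Cox6a2, above all other types, and cDC2-like cells lie at 42.1 and 29.8 CPM for Cox6b2.

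Cox6b2, the testis-type copy of subunit 6B, was highest in cDC2-like cells in WT. WT cDC2-like cells held 42.1 CPM (38.0 to 46.6) and Mgl2DTR ones 29.8 CPM (23.4 to 37.6), and the intervals did not overlap. The WT level was 6.05 times that of the other WT types together. By cluster it was at 47.4 and 32.6 CPM in cluster 16, a ratio of 0.689 (0.485 to 0.958), and at 36.5 and 26.5 CPM in cluster 18, a ratio of 0.726 whose interval (0.471 to 1.08) included 1. A UMI was seen in 27.7% of WT cDC2-like cells, or 6.93% (5.34 to 8.82) after thinning. The thinned share in WT pDC-like cells was 0.481% (0.131 to 1.23). In pDC-like cells, the highest type for Cox6a2, Cox6b2 was at 1.15 and 2.40 CPM. Its WT level was lowest there, while in the Mgl2DTR pool it was lowest in B cell-like cells. In that pool cycling T cell or thymocyte-like cells (39.0 CPM, 25 UMIs) were as high as cDC2-like cells within their intervals. Cox6b1 was at 875 CPM in WT and 865 in Mgl2DTR cDC2-like cells, and at 634 and 606 CPM in pDC-like cells.

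The other restricted isoforms were scarce. Cox7a1 lay between 0.738 and 7.73 CPM in the WT types, with 5.39 in cDC1-like, 7.63 in cDC2-like and 7.73 in cycling T cell or thymocyte-like cells, while its partner Cox7a2 ran from 365 CPM in B cell-like to 861 in cycling T cell or thymocyte-like cells. Cox4i2 was highest in macrophage-like cells in WT, at 3.84 CPM (23 UMIs), and was at 2.21 CPM (5 UMIs) there in Mgl2DTR, where cycling T cell or thymocyte-like cells lay at 3.12 CPM on 2 UMIs. In WT, 0 UMIs were seen in cDC1-like, pDC-like and cDC2-like cells. Cox8b gave 5 UMIs and Ndufa4l2 gave 2 UMIs over all 12 WT types. Their partners Cox8a and Ndufa4 ran from 682 to 1305.6 CPM and from 295 to 964 CPM, both from neutrophil-like to cycling T cell or thymocyte-like cells.

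Mitochondrially encoded transcripts did not follow the nuclear ones. They were highest in WT pDC-like (28791.5 CPM), T cell or thymocyte-like (25902.1) and B cell-like cells (25275.8), and lowest in cycling cDC1-like (15697.8) and neutrophil-like cells (9239.8). Across the 12 WT types the nuclear and the mitochondrial sums gave a Pearson r of 0.38 and a Spearman rho of -0.03. The nuclear sum was 2.15 times the mitochondrial sum in cycling cDC1-like cells and 0.957 times in B cell-like cells. The mitochondrial sum and ribosomal protein genes gave an r of 0.67 and a rho of 0.44 over the same types. Neutrophil-like cells were lowest in both, as the plot of nuclear against mitochondrial levels shows.

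**Figure D3:**
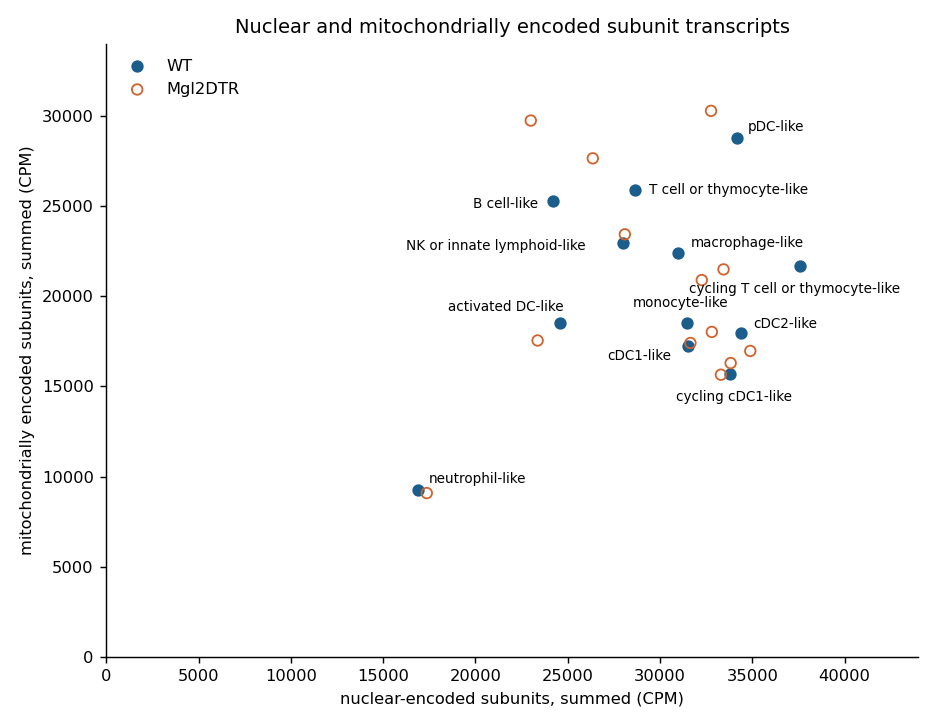
Summed CPM of the nuclear-encoded subunits (x axis) against summed CPM of the 13 mitochondrially encoded genes (y axis), 1 point per cell type, filled for WT and open for Mgl2DTR, with labels at the WT points. B cell-like and cycling cDC1-like cells lie at opposite sides, with a nuclear to mitochondrial ratio of 0.957 and 2.15 in WT.

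In pDC-like cells the mitochondrial sum was 1.67 times that of cDC1-like cells (1.66 to 1.68), and the nuclear sum was 1.08 times. Cox6a2 alone gave 2833.8 CPM of that nuclear sum. The median ratio of the members was 0.995, with 40 of 80 above 1. All 13 mt- genes were higher in pDC-like cells, among them mt-Nd4 (2039.3 against 875 CPM, 2.33 times), mt-Nd5 (462 against 200 CPM, 2.31 times) and mt-Co1 (6867.6 against 4139.2 CPM, 1.66 times). A gene with at least 50 UMIs in the pair was called higher or lower when its ratio passed 1.5 in that direction and its interval did not include 1. By that rule 2 of 80 members were higher in pDC-like cells (Cox6a2 and Ndufa11, 1.72 times), beside 35.2% of all genes tested. Another 3 were lower, beside 16.9% of all genes: Cox6b2 (0.245 times), Cox7a1 (0.496 times) and Uqcrb (413 against 623 CPM, 0.663 times). In cDC2-like over cDC1-like cells 2 of 80 members were higher, Cox6a2 and Cox6b2, beside 23.3% of all genes, and 0 were lower, beside 8.79%. Of these 7 calls, 5 were of restricted isoforms.

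Activated DC-like cells held less than cDC1-like cells, and unequally between complexes. The WT sum was 24558.1 against 31528.4 CPM, a ratio of 0.779 (0.775 to 0.783). Complex I was at 0.671 times the cDC1-like level (6507.8 against 9697.8 CPM), complex II at 0.623, complex V at 0.763 and complex III at 0.773, while complex IV was at 0.927 (7958.7 against 8587.6 CPM). By WT cluster, the members made up 2.21% and 2.71% of UMIs in the activated DC-like clusters 3 and 7. They made up 3.31% and 2.8% in the cDC1-like clusters 0 and 5, so clusters 7 and 5 lay close. In the same order, complex I was at 5635.5 and 7381.6 CPM in the activated DC-like and at 10267.6 and 8441.8 CPM in the cDC1-like clusters. The clusters did not overlap for complex I, but did for complex IV (7650.5 and 8267.4 against 8879.2 and 7944.9 CPM). The median depth was 6272 UMIs in WT activated DC-like and 13747.5 in cDC1-like cells.

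Of 80 members tested, 38 (47.5%) were called lower in activated DC-like cells, beside 30.3% of all genes, and 3 (3.75%) higher, beside 24.1%. In complex I 24 of 37 were lower and 0 higher. The lowest ratios were those of Ndufa5 (60.6 against 152 CPM, 0.398), Ndufa12 (85.0 against 212, 0.401), Ndufb11 (189 against 470, 0.402) and Atp5g1 (234 against 554, 0.423). Core subunits lay lower as well: Ndufs7 at 0.511, Ndufv1 at 0.619, Ndufs1 at 0.635, Uqcrc1 at 0.591, Atp5b at 0.633 and Atp5a1 at 0.641. Within complex II, Sdhb was at 76.1 against 169 CPM (0.451) while Sdha was at 55.5 against 49.8 CPM (1.12, 1.00 to 1.24).

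Other members went the opposite way in the same cells. Uqcrh was at 929 against 607 CPM (1.53), Cox5a at 752 against 535 CPM (1.40, under the 1.5 limit) and Ndufb4 at 258 against 196 CPM (1.32). Cox7c reached its highest WT level in activated DC-like cells, 1650.7 against 1528.9 CPM in cDC1-like cells, and Cox4i1 was at 1063.8 against 1049.4 CPM. Scaled without mt- and ribosomal protein UMIs, the Cox7c levels were equal, with a ratio of 1. The other members called higher, Cox6b2 (7.79 against 4.68 CPM) and Cox6a2 (11.2 against 5.35 CPM), were scarce in both types.

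The mitochondrially encoded sum was 1.07 times the cDC1-like level in WT activated DC-like cells, 18509.3 against 17250.4 CPM, and 0 of 13 genes were called. Its direction was not fixed by the data: it was 0.994 times with scaling that leaves out mt- and ribosomal protein UMIs and 0.985 times with doublet-rich clusters kept. Against cDC2-like cells the nuclear ratio was 0.715 and that of complex I 0.586. The Mgl2DTR pool gave 23366.9 CPM in activated DC-like and 31645.3 in cDC1-like cells.

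**Figure D4:**
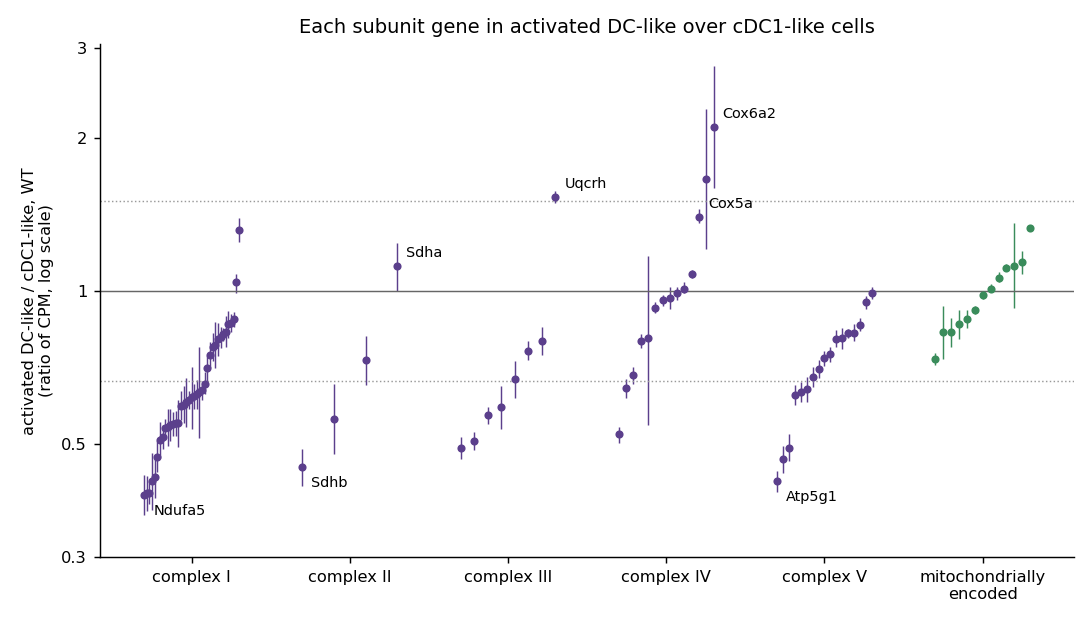
Ratio of CPM in WT activated DC-like over WT cDC1-like cells for each measured gene (y axis, log scale), grouped by complex and sorted within it, with bars for the 95% counting interval and dotted lines at 1.5 either way. Most complex I genes lie below the lower line (24 of 37 called lower), while complex IV genes spread from Cox7b at 0.523 to Cox6a2 at 2.10.

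Neutrophil-like cells held the least of most members. Their WT sum was 0.535 times that of cDC1-like cells (0.530 to 0.540) and 0.536 times that of monocyte-like cells. Of 80 members tested, 64 (80%) were called lower than in cDC1-like cells, beside 41.2% of all genes, and 2 higher (Cox6a2 and Cox6b2), beside 18.5%. The lowest were Atp5g1 (135 against 554 CPM, 0.245), Ndufs3 (27.8 against 86.4, 0.322) and Ndufa12 (70.6 against 212, 0.333). Complex III (0.456) and complex V (0.490) were lower than complex I (0.597), and Ndufb7 (356 against 348 CPM) and Ndufv3 (231 against 227 CPM) were level. Against monocyte-like cells mt-Nd2 was at 166 against 638 CPM (0.259) and Ndufs3 at 0.269. The Mgl2DTR pool gave 17361.8 CPM in neutrophil-like and 32805.5 in monocyte-like cells. The ratio to cDC1-like cells lay between 0.424 and 0.632 under the other settings tried, so it kept its direction, and the neutrophil-like cells were shallow (median 3534 UMIs in WT and 1948 in Mgl2DTR). The 90 Mgl2DTR cells of the cycling neutrophil-like cluster 34 held 33297.9 CPM, at a median depth of 38282.5 UMIs, while its 27 WT cells were under the minimum of 50 cells and were not summed.

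Cycling T cell or thymocyte-like cells held 1.31 times the nuclear sum of T cell or thymocyte-like cells in WT (1.30 to 1.33), whereas the mitochondrial sum was 0.838 times. Of 79 members 19 (24.1%) were higher, beside 14.7% of all genes, and 1 was lower, Cox7a2l (209 against 318 CPM, 0.657), beside 21.8%. Complex IV held 6 of the 19: Cox8a was at 1305.6 against 747 CPM (1.75), Cox7a2 at 861 against 483 (1.78) and Cox5a at 731 against 446 (1.64). Uqcr11 was at 539 against 297 CPM (1.81) and Ndufv1 at 83.0 against 50.3 (1.65). These types hold different clusters. The WT cycling cells were 95 of cluster 36 (33744.7 CPM) and 118 of cluster 37 (40325.7 CPM, led by Dntt and Arpp21), and the other WT cells were 1376 of cluster 1 (28775.1 CPM) and 406 of cluster 25 (27581.5 CPM). Cluster 36 alone lay below cDC2-like, pDC-like and cycling cDC1-like cells, so the top rank of the cycling T cell or thymocyte-like type in WT rests on cluster 37. In Mgl2DTR the 56 cycling cells, 42 of cluster 36 and 14 of cluster 37, held 33439.9 CPM against 26356.4 in the T cell or thymocyte-like cells. Cycling cDC1-like cells held 1.07 times the nuclear sum and 0.910 times the mitochondrial sum of cDC1-like cells in WT, and 0 of 80 members were called.

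Other genes of the pathway were read from lists. Assembly factors of the complexes (49 of 50 in the tables) summed to 2672.5 CPM in pDC-like and 1346.4 in neutrophil-like WT cells, with 2153.8 in cDC1-like and 2072.1 in activated DC-like cells. Electron carriers and related factors (9 of 10) summed to 2700.1 CPM in cDC1-like but 1236.3 in activated DC-like cells, with Cycs, the gene of cytochrome c, at 582 and 145 CPM. The 14 tricarboxylic acid cycle genes summed to 1020.7 CPM in cycling T cell or thymocyte-like cells and were lowest, at 477 CPM, in activated DC-like cells. Regulators of mitochondrial biogenesis (13 of 13) ran from 171 CPM in neutrophil-like to 458 in cycling T cell or thymocyte-like cells. Among them Nrf1, a factor that binds respiratory chain promoters, was at 73.4 CPM in cycling T cell or thymocyte-like and 10.9 in cDC1-like cells, and Tfam, which packages mitochondrial DNA and is needed for its transcription, at 71.5 in the cycling cells and 7.72 in neutrophil-like cells. Gabpa, an ETS factor, was at 36.2 CPM in cycling T cell or thymocyte-like and 12.8 in activated DC-like cells. Esrra lay between 8.21 and 22.1 CPM. The coactivator Ppargc1b reached 13.1 CPM in monocyte-like cells and was at 0.386 in neutrophil-like cells, and Ppargc1a, its relative, reached 1.92 CPM in NK or innate lymphoid-like cells.

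The second question was whether the members differed between the Mgl2DTR and the WT pool within a cell type. They differed little: over 17 clusters with at least 50 cells in each genotype, the summed ratio of Mgl2DTR over WT lay between 0.857 (neutrophil-like 10) and 1.15 (monocyte-like 24), and between 0.915 and 1.08 in the other 15. Of 1322 pairs of a member and a cluster, 13 (0.983%) were called higher in Mgl2DTR and 11 (0.832%) lower, beside 4.23% and 3.49% of all genes and clusters. At a looser limit of 5/4, 47 were higher and 31 lower, beside 7.54% and 5.67%. The calls at 1.5 were 8 higher and 4 lower of 619 pairs for complex I, 0 and 1 of 64 for complex II, 0 and 2 of 136 for complex III, 3 and 2 of 214 for complex IV and 2 and 2 of 289 for complex V. Without monocyte-like 24 and neutrophil-like 10, 4 were higher (0.34%) and 1 lower (0.0851%) of 1175, beside 3.43% and 2.77% of all genes. The calls thus came mostly from those 2 clusters. The cycling T cell or thymocyte-like type could be compared only as a whole, since its clusters held 42 and 14 Mgl2DTR cells. It held 33439.9 CPM in Mgl2DTR against 37608.1 in WT, from a different mix of its clusters. At 5/4, 11 of its 79 members (13.9%) were lower, beside 7.79% of all genes, and 2 (2.53%) higher, beside 8.46%.

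**Figure D5:**
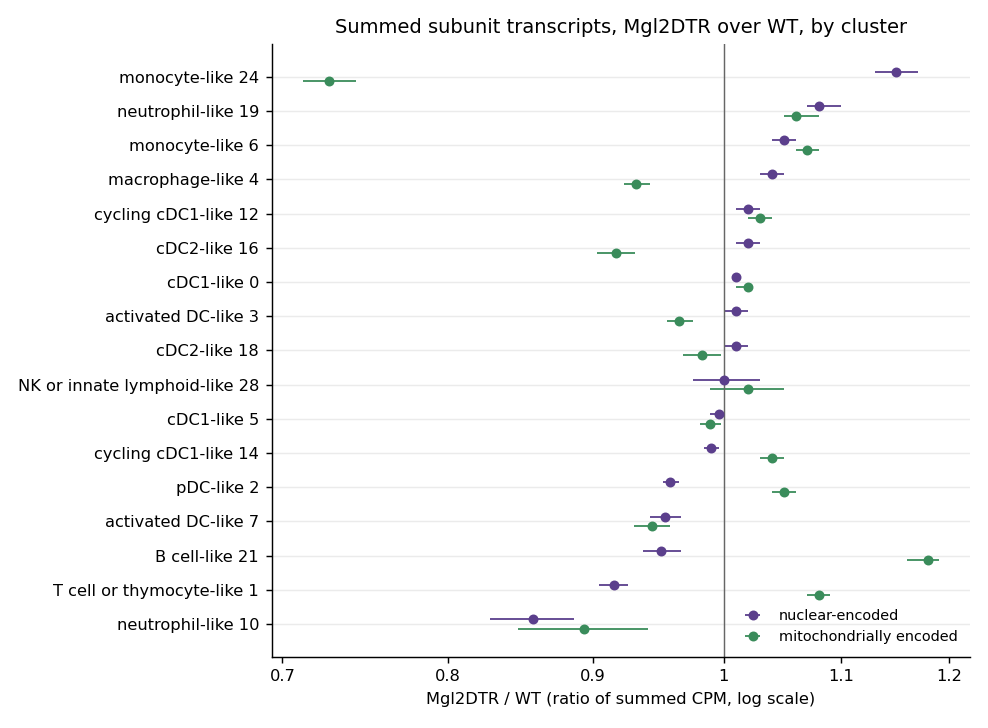
Ratio of summed CPM, Mgl2DTR over WT, on a log axis for the nuclear-encoded members (purple) and the mitochondrially encoded genes (green) in each of 17 clusters (y axis), with bars for the 95% counting interval. Of the nuclear ratios 15 lie between 0.915 and 1.08, and the mitochondrial ratio runs from 0.727 in monocyte-like 24 to 1.18 in B cell-like 21.

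In the dendritic clusters no common subunit was called. The share of all genes called there, in either direction, was 3.9% in cDC1-like 0, 2.76% in cDC1-like 5, 3.55% in cycling cDC1-like 12, 2.76% in cycling cDC1-like 14, 6.84% in cDC2-like 16, 7.94% in cDC2-like 18, 6.48% in activated DC-like 3, 7.06% in activated DC-like 7 and 3.23% in pDC-like 2. The members called were Cox7a1 in cycling cDC1-like 12 (8.41 CPM in WT, 15.3 in Mgl2DTR, 1.82 times) and Cox6a2 in activated DC-like 3 (7.32 and 17.1 CPM, 2.34 times). Without cells called doublets the Cox6a2 ratio in that cluster was 1.1. The cDC2-like clusters gave summed nuclear ratios of 1.02 (cluster 16) and 1.01 (cluster 18), and mitochondrial ratios of 0.917 and 0.983. In pDC-like cells the nuclear ratio was 0.958 and the mitochondrial one 1.05.

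In the myeloid clusters the share of all genes called was 8.89% in macrophage-like 4, 12.4% in monocyte-like 6, 33.2% in monocyte-like 24, 18.2% in neutrophil-like 10 and 11% in neutrophil-like 19. In monocyte-like 24, 9 of 78 members (11.5%) were higher, beside 19.4% of all genes, and 2 (2.56%) lower, beside 13.8%. At the limit of 5/4, 28 (35.9%) were higher, beside 23.5% of all genes. The members called at 1.5 included Ndufv1 (25.3 CPM in WT and 55.9 in Mgl2DTR, 2.21 times), Ndufs1 (19.9 and 41.1, 2.07 times), Ndufa8 (99.3 and 187, 1.88 times), Cox7a2l (245 and 134, 0.547 times) and Cox6a2 (141 and 21.4, 0.152 times). The Cox6a2 ratio rests on 78 WT and 39 Mgl2DTR UMIs, and 1 WT cell held 71 of the 78. The WT side of monocyte-like 24 held 60 cells, of which 95% were called doublets, against 26% of the 208 Mgl2DTR cells. The part of these in the ratios was not tested. In neutrophil-like 10, 8 of 69 members (11.6%) were lower, beside 11.4% of all genes lower there, so the share was near that of all genes. They included Uqcrc2 (83.2 CPM in WT and 33.0 in Mgl2DTR, 0.397 times), Ndufb5 (112 and 52.5, 0.467 times), Sdhb (117 and 67.7, 0.581 times), Atp5g2 (246 and 144, 0.586 times) and Ndufa6 (283 and 171, 0.604 times). Ribosomal protein genes summed to 0.718 times the WT level in the same 121 WT and 644 Mgl2DTR cells. In neutrophil-like 19 Cox6a2 was at 46.8 and 107 CPM (2.30 times). That ratio was 4.75 without cells called doublets and 1.03 without cells that held markers of other types, and of the 25 cells with at least 5 Cox6a2 UMIs in that cluster none lacked Siglech.

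In the lymphoid clusters the share of all genes called was 8.77% in B cell-like 21, 5.08% in NK or innate lymphoid-like 28 and 5.09% in T cell or thymocyte-like 1. In NK or innate lymphoid-like 28 Ndufa12 (117 CPM in WT and 179 in Mgl2DTR, 1.53 times) and Ndufs8 (134 and 66.0, 0.491 times) were called, on 61 and 46, and 70 and 17 UMIs. The Ndufa12 ratio was 1.44 (0.932 to 2.22) without called doublets and 1.5 (0.952 to 2.34) without cells holding markers of other types. Thinned to 2000 UMIs it was 1.79 (0.999 to 3.18), and that of Ndufs8 was 0.471 (0.188 to 1.04), so neither call held there. The T cell or thymocyte-like 1 cluster had the lowest nuclear ratio outside neutrophil-like 10, 0.915 (0.904 to 0.926), while its mitochondrial ratio was 1.08. At the limit of 5/4, 5 of its 78 members (6.41%) were lower, a share near the 5.02% of all genes: Sdha (92.1 CPM in WT and 69.9 in Mgl2DTR), Ndufs5 (204 and 156), Ndufb8 (217 and 169), Ndufc2 (266 and 213) and Atp5b (423 and 338). In B cell-like 21 the nuclear ratio was 0.951 and the mitochondrial one 1.18, and 6 of 77 members (7.79%) were lower at that limit, beside 4.6% of all genes, led by Ndufs5 (219 and 153 CPM) and Ndufa1 (310 and 219 CPM). All 13 mt- genes lay above 1 in both clusters. In the plot of ratios by cluster, the nuclear sum lay below 1 and the mitochondrial sum above 1 in both, in pDC-like 2 and in cycling cDC1-like 14 (0.990 and 1.04). The opposite held in monocyte-like 24 (1.15 and 0.727), macrophage-like 4 (1.04 and 0.932), cDC2-like 16 and 18 and activated DC-like 3 (1.01 and 0.965).

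The other lists were counted between genotypes in the same way, beside the same 4.23% and 3.49% of all genes and clusters. Over the 17 clusters, 12 pairs were higher and 3 lower of 584 for assembly factors, 6 and 2 of 143 for electron carriers and 5 and 2 of 213 for the tricarboxylic acid cycle. For regulators 0 were higher and 3 lower of 126, for the mt- genes 1 and 4 of 216, and for ribosomal protein genes 3 and 33 of 1532, of which 27 lower pairs lay in neutrophil-like 10. Of the 83 members, 69 had enough UMIs to be compared in every cluster and 11 in some. Cox4i2, Cox8b and Ndufa4l2 had enough in none.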

How the data were processed

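Cells of both genotypes were profiled together with the 10x Chromium 3′ v3 kit and hashtags, per the labels. The gene tables the authors deposited hold raw counts (UMIs, in whole numbers, for each cell), and a deposited annotation gives the hashtag of each cell, which set its genotype. Per the submitters' processing notes, the tools were Cell Ranger (6.0.0) and Seurat (4.0.4) and the genome build was mm10. The gene annotation, the strand setting and any filter on cells are not given in the sources used here, and 8 deposited columns were not used.

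From these, counts were scaled to 10000 per cell, log-transformed and clustered with leidenalg 0.10.2 and scikit-learn 1.9.0 under Python 3.11.15, beside pandas 2.3.3, scipy 1.17.1 and numpy 2.4.6. The clustering used 2000 variable genes other than members, mt- genes and Mgl2, 30 principal components, 20 neighbours and Leiden resolution 1. A cluster was named from at least 3 listed markers. Of 47 clusters with at least 20 single-hashtag cells, 14 stayed unnamed, 12 named ones were set aside because at least 50% of their cells over both genotypes were called doublets, a limit chosen after the data were seen, and 21 were used. Doublet calls were given to cells with a pair of hashtags on 12 or more of their 50 nearest neighbours. Cells with such a pair made up 34% of all cells. Neighbours drawn evenly from all cells would on average pass this cut, so a call does not by itself show an excess of pairs. Cell types are therefore rebuilt, and may differ from those of the study.

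UMIs were summed per cell type and genotype and given as CPM with exact Poisson intervals, ratios with exact conditional intervals and shares of cells with exact Clopper-Pearson intervals, all at 95%. With 1 pool per genotype there was no test. A gene was called at a ratio of at least 1.5 with its interval on that side of 1. Only genes with at least 50 summed counts were eligible. The rule was also run on simulated Poisson counts. These follow the model that the intervals assume, so the run cannot show how the rule does with spread beyond counting error. Molecules, not cells or mice, limit the precision given. Genes were named by rule: restricted isoforms and their partners, core subunits, the 2 widest-ranging members per complex, up to 5 called members per cluster and 6 regulators. Others, such as the members at the ends of the comparisons between cell types, were singled out after their values were seen. The members and lists were chosen with earlier results of these data known. Sequences are from RefSeq (GRCm38.p6) and positions from GENCODE vM21, in which 81 of 83 members matched by symbol. Figures were drawn with matplotlib 3.10.9. The alternatives tried are in the closing section. The values of 1 core subunit are not reported here.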

Additional observations from a re-analysis of the deposited data

Results flagged for a closer look

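Cox4i2, the lung-type copy of complex IV subunit 4, gave a signal in cells that no comparison above uses. In the unnamed cycling cluster 9, led by Ifitm1, Bex6, Pclaf and Birc5, 115 Cox4i2 UMIs lay in 32 of 249 Mgl2DTR cells, a level of 20 CPM (16.5 to 24). In the 291 WT cells of the cluster 0 UMIs were seen, which allows up to 0.559 CPM at 3 counts and up to 0.687 CPM by the exact interval. In all other cells Cox4i2 was at 0.377 CPM in WT (42 UMIs) and 0.365 CPM in Mgl2DTR (24 UMIs). Of the 32 cells, 23 were not called doublets and held 85 of the UMIs, and the highest cell held 15. Over the whole cluster 56.7% of cells were called doublets, and their part in the level was not tested. It was flagged as a signal outside the main measurement and above the level of the WT cells. With 1 pool per genotype the difference has no replicate check.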

How the results depend on the processing

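Of 80 values that answer a comparison and were recomputed under another setting, 31 moved by less than their counting interval (1.5 times for counts of calls), 47 moved further and 2 reversed. Of 121 values for single members, 80 stayed within it, 28 moved, 13 were no longer called and 0 reversed. Of the 24 calls between genotypes, these values follow only 5 pairs of a member and a cluster. The other calls, all in a monocyte-like and a neutrophil-like cluster, were recomputed only within the counts of calls, not singly. The rest of the values are WT ratios of activated DC-like over cDC1-like cells, for members such as Ndufa5 and Cox7c. The 13 lost calls concern those 5 pairs. At 200 counts 4 were lost with their ratio unchanged. After thinning 5 were lost, Cox6a2 at 1.69 (cluster 3) and 2.42 (cluster 19), Cox7a1 at 1.2, Ndufa12 at 1.79 and Ndufs8 at 0.471. Without called doublets Cox6a2 in cluster 3 was at 1.1 and Ndufa12 at 1.44, and without cells holding other markers Cox6a2 in cluster 19 was at 1.03 and Ndufa12 at 1.5. The cause was not tested for any. No paired analysis was possible because each genotype was 1 pool, so leaving out a replicate was not possible either.

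The WT neutrophil-like over cDC1-like nuclear ratio (0.535) was 0.441 without called doublets, 0.443 without cells holding markers of other types, 0.455 after thinning, 0.477 as a mean over cells, 0.424 scaled without mt- and ribosomal protein genes, 0.632 at Leiden resolution 0.5 and 0.585 with doublet-rich clusters kept. In the same order, the activated DC-like over cDC1-like ratio (0.779) was 0.773, 0.76, 0.786, 0.741, 0.722, 0.786 and 0.824. The cycling over other T cell or thymocyte-like ratio (1.31) was 1.33 as a mean over cells, 1.26 scaled without mt- and ribosomal protein genes and 1.26 with doublet-rich clusters kept. The pDC-like over cDC1-like mitochondrial ratio (1.67) was 1.7 without called doublets, 1.53 after thinning, 1.51 as a mean over cells, 1.63 under the other scaling and 1.39 with doublet-rich clusters kept. The activated DC-like over cDC1-like mitochondrial ratio (1.07) was 1.06, 1.09, 1.02, 1.29, 0.994, 1.11 and 0.985 in the first order, so it reversed under the other scaling and with doublet-rich clusters kept. Cox6a2 in pDC-like over all other named WT cells (140) was 186 without called doublets, 205 without cells holding other markers, 148 after thinning, 109 at resolution 0.5 and 57.1 with doublet-rich clusters kept. Cox6b2 in cDC2-like over other cells (6.05) was 6.96 without cells holding other markers.

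Of the calls between genotypes, the 13 higher became 5 without called doublets, 7 without cells holding other markers, 25 as a mean over cells, 23 at resolution 0.5, 8 at a minimum of 200 counts, 47 at a limit of 5/4, 4 without monocyte-like 24 and 4 without it and neutrophil-like 10. The 11 lower became 6 without called doublets, 23 at resolution 0.5, 4 at 200 counts, 31 at 5/4, 3 without neutrophil-like 10 and 1 without both. The pairs compared were not the same in each setting. Against 1322 pairs, 1232 were compared without called doublets and 1230 without cells holding other markers. At resolution 0.5 there were 1245 and at 200 counts 1204. Of the 60 WT cells of monocyte-like 24, 95% were called doublets, so without them this cluster fell under the minimum of 50 cells. Keeping doublet-rich clusters and leaving out clusters 24 and 10 were chosen after the data were seen. Shallow types, such as NK or innate lymphoid-like, T cell or thymocyte-like and neutrophil-like cells, limit what single members can show.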

Other observations

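A small number of cells outside the pDC-like cluster used here held many Cox6a2 UMIs with no UMI of Siglech. In NK or innate lymphoid-like 28, 7 of 253 cells held at least 5 and together 83 Cox6a2 UMIs, 82.2% of those in the cluster. The top 3 cells held 28, 19 and 11 UMIs, all 7 had 0 Siglech UMIs, 6 were not called doublets, and 4 were WT and 3 Mgl2DTR. In pDC-like 2, by comparison, 1430 of 1634 cells held at least 5, with a median of 13 Siglech UMIs, and 0 of the 1430 lacked Siglech. In cycling T cell or thymocyte-like 36, 2 cells held 64 of 73 Cox6a2 UMIs (51 and 13), both with 0 Siglech UMIs, and 1 was not called a doublet. These cells were picked by their Cox6a2 level after the values were seen.

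The unnamed cycling cluster 9 also held Cox6a2 (66.7 CPM for WT, 170 for Mgl2DTR), and Cox6b2 at 40.2 and 13.4 CPM, beside Siglech at 42.1 and 47.4 CPM. In that cluster 74 of 540 cells, 13 WT and 61 Mgl2DTR, held at least 5 Cox6a2 UMIs, and 30 of the 74 had no Siglech UMI. Its members summed to 34049.5 CPM in WT and 38609.0 in Mgl2DTR. The unnamed cluster 23 held no cell with more than 1 Cox6a2 UMI.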
